A study of Mus musculus with 6 samples.

Results

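The nuclear-encoded genes of the respiratory chain and ATP synthase were taken from the count table by their symbols: the Nduf genes of complex I, Sdha to Sdhd of complex II, the Uqcr genes and Cyc1 of complex III, the Cox4 to Cox8 subunit genes of complex IV, the Atp5 genes of ATP synthase, and Cycs. The symbols matched 80 of the 20071 Ensembl IDs, with 36 in complex I, 4 in complex II, 9 in complex III, 13 in complex IV, 17 in ATP synthase and Cycs alone as cytochrome c. Ndufa4 was placed in complex IV, where its protein is now counted. Cox4i1, the usual isoform of complex IV subunit 4, is written in a form that the symbols did not match, and it is described beside the 80 genes.

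The study sequenced poly(A) RNA of bone marrow mesenchymal stem cells (MSCs), the stromal cells that can form osteoblasts, to learn what loss of Pcif1 changes as they differentiate. The 3 WT libraries came from Pcif1 fl/fl mice and the 3 CKO libraries from Prrx1-Cre;Pcif1 fl/fl littermates, so the floxed allele was present in both groups. Per the study's methods, femurs of 6-week-old mice gave the cells, and both groups were cultured for 7 days in osteogenic medium, which contained dexamethasone at 100 nM, ascorbic acid at 50 µg/mL and β-glycerophosphate at 5 mM. Prrx1-Cre acts in limb mesenchyme and removes exons 5 to 7 of Pcif1 there, and other marrow cells keep the gene. The labels show 3 libraries per genotype where the deposited design text speaks of duplicates, and separate mice or cultures per library are not stated, so p-values measure the spread between these libraries.

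The respiratory chain sits in the inner mitochondrial membrane. Complexes I and II pass electrons from NADH and succinate to ubiquinone, complex III hands them to cytochrome c, and complex IV gives them to oxygen. The proton gradient built on the way drives ATP synthase. Most subunits are encoded in the nucleus and imported, while a small set of core subunits of complexes I, III, IV and ATP synthase is encoded by mitochondrial DNA. MSCs are known to rely more on glycolysis and to raise respiration as they become osteoblasts. PCIF1 methylates the adenosine next to the mRNA cap, which gives the mark m6Am, so it can act only on transcripts that begin with A.

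The libraries held 20258209 to 28227696 counts. Pcif1 stood at 39.3 to 42.8 CPM (counts scaled to a common library size with edgeR's TMM factors) in WT and 37.8 to 39.7 CPM in CKO, and counts per gene do not show whether exons were lost. Xist, made from the inactive X chromosome of females, stood at 232 to 442 CPM in WT and 0.721 to 1.79 CPM in CKO, and the Y-linked Ddx3y at 48.4 to 62.2 CPM in WT and 99.0 to 104 CPM in CKO. The WT libraries thus each held both Xist and Y-linked mRNA, as a mix of female and male cells would. The CKO libraries held Y-linked mRNA and little Xist. The make-up of the cells by sex differed between the groups and cannot be told apart from genotype. The 8 macrophage markers summed to 26455 to 28569 CPM in WT and 25376 to 29602 CPM in CKO, most of it Lyz2, so macrophage transcripts were abundant in cultures labelled as MSCs. None of the 8 passed the test (1 lower and 1 higher at an unadjusted p under 0.05). Without WT replicate 3, 1 was called lower and 2 higher, where 10.4% of all genes were called lower and 11.1% higher. In CKO 4 of 6 adipocyte and 3 of 5 tested osteoblast markers fell, where 4.51% of all genes tested were called lower. The sums of these lists overlapped between the genotypes, at 474 to 571 CPM in WT and 426 to 613 CPM in CKO for adipocyte and 10085 to 17218 CPM in WT and 12052 to 20279 CPM in CKO for osteoblast markers, the latter mostly Spp1. Of 9 mesenchymal stromal markers 4 rose, where 2.88% of all genes were called higher, and 2 fell, and their sum was 7512 to 10009 CPM in WT and 12922 to 13771 CPM in CKO. In bulk RNA, fewer cells of a type and less RNA per cell cannot be told apart. WT replicate 3 stood apart from the other WT libraries, with a chi-square per gene of 106 and 90.1 against WT replicates 1 and 2, where other pairs within a genotype gave 2.86 to 10.5. The 5 endothelial markers summed to 35.8 CPM in WT replicate 3 and 19.5 to 25.6 CPM in the other libraries. WT replicate 3 was the highest library in 3 of these 5, in 4 of 5 tested osteoblast markers and in 2 of 8 macrophage markers, where it was highest in 32.1% of all genes.

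Promoter windows of 300 bases, 250 before and 50 from the annotated start, were found in the RefSeq table (GRCm38.p6) for 67 of the 80 genes, 5 of them with 2 windows. Nuclear respiratory factor 1 (NRF1) and the ETS family factor GABP are known regulators of these genes. The core GCATGCGC of the NRF1 motif, on either strand, was in 11 of 72 windows (15.3%) and in 2.71% of all 32851 windows in the table. The ETS core CCGGAAG, on either strand, was in 17 of the 72 (23.6%) and in 8.86% of all windows. The annotated start base was A in 18 of the 72 windows (25.0%), against 34.4% of all windows, and G in 37 of them. A match of letters is a description of the window and not a site of binding or methylation.

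The windows below run from 100 bases before the start to the start base, with the start base and any motif core in capitals. They are shown because the results turn on these genes: Cycs and Atp5k had the smallest p-values, Cox7b, Ndufs7 and Cycs passed the test without WT replicate 3, Atp5e differed most in that library, and Ndufa4, an abundant subunit mRNA per length, had one of the few fold changes below 0.
Cycs, chr6:50566569-50566669, minus strand: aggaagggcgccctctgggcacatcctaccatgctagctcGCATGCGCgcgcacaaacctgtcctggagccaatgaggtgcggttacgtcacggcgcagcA
Atp5k, chr5:108434399-108434499, minus strand: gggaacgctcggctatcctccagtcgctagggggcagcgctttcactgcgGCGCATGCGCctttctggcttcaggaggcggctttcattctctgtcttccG
Cox7b, chrX:106015600-106015700, plus strand: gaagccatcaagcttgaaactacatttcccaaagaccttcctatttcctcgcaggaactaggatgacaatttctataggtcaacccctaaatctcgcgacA
Ndufs7, chr10:80249349-80249449, plus strand: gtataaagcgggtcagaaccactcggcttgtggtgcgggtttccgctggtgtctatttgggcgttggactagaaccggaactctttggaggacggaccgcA
Ndufa4, chr6:11907450-11907550, minus strand: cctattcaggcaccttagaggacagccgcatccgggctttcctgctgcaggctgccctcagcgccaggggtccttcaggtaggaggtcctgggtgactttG
Atp5e, chr2:174464101-174464201, minus strand: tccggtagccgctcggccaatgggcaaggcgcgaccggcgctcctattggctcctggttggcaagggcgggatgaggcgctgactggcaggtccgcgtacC
Cycs has the NRF1 core 60 bases before an annotated A, and Atp5k has it 48 bases before a G, where 2 copies on opposite strands overlap. Cox7b and Ndufs7 also begin at an annotated A, and neither core was in these stretches of Cox7b, Ndufs7, Ndufa4 or Atp5e.

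Of the 80 genes, 78 passed edgeR's expression filter and were tested, with mean levels of 4.83 to 617 CPM. Cox6a2 and Cox7a1, isoforms made mainly in heart and skeletal muscle, did not pass and stayed under 0.62 CPM in every library. Cox6b2, best known from testis, was measured at 11.7, 11.1 and 6.38 CPM in WT replicates 1 to 3 and at 9.85, 9.95 and 9.28 CPM in CKO. Per kilobase of transcript, Atp5b (the catalytic β subunit of ATP synthase) was highest at 322 CPM per kilobase, followed by Cox6a1 at 260, Cox8a at 211 and Atp5a1 (the α subunit) at 191. At the low end of the tested genes stood Ndufb9, Atp5g1, Ndufb1 and Ndufb2, at 10.04 to 10.6 CPM per kilobase. Without WT replicate 3, Cycs joined them, and the 5 genes lay within 10.7 and 11.01 CPM per kilobase. Levels per kilobase depend on the transcript chosen from GENCODE. Of the 80 genes, 24 have a near-identical copy (at least 95% over 150 bases) among the annotated transcripts of other genes. For 7 of them a copy is also in the count table, so their reads could have been split. Reads of copies outside the table could not be told apart either.

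CKO and WT MSCs were compared first over all 6 libraries, to ask whether loss of Pcif1 went with a change in the mRNAs of the respiratory chain. No gene passed the test at an adjusted p under 0.05 in edgeR's quasi-likelihood test: 0 of 78 were lower and 0 of 78 higher in CKO, where 4.51% of all 13733 genes tested were called lower and 2.88% higher. At an unadjusted p under 0.05 there were 2 higher and 0 lower, where 1313 of all 13733 genes were higher and 1619 lower. DESeq2 and limma-voom also called 0 in each direction. The log2 fold change was above 0 for 71 of the 78 genes, with a median of 0.16, where the median of all genes was 0.002. The standard errors ran from 0.084 to 0.46 with a median of 0.20. In 6 genes the 3 CKO libraries all lay above the 3 WT libraries, where this held for 15% of all genes. In 1 gene, Sdha, they all lay below, where the background was 15.7%.

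The fold changes above 0 depended on 1 library. Without WT replicate 3, 44 of the 78 log2 fold changes were below 0 and 34 above, with a median of -0.026. The standard errors then ran from 0.061 to 0.19 with a median of 0.083. On the log2 scale 75 of the 78 genes lay within 0.25 of 0, as did 8821 of the 13726 genes tested in both fits. In this fit the 2 WT libraries left share 1 estimate of spread with the CKO libraries. Called lower was 1 gene, Ndufs7, against 10.4% of all 13905 genes tested, and 2 were called higher, Cycs and Cox7b, against 11.1%. The GC content was 60.7% for Ndufs7, 40.8% for Cycs and 42.0% for Cox7b, where the median of the 78 genes was 51.7%. Spearman's rho of GC content with this log2 fold change was -0.33 across the 78 genes and -0.23 across 13723 genes. The part of GC content in these calls was not tested. The medians without the library were -0.037 for the 36 genes of complex I, -0.049 for the 4 of complex II, 0.006 for the 9 of complex III, -0.031 for the 11 tested of complex IV and 0.024 for the 17 of ATP synthase. With all 6 libraries the same medians were 0.16, 0.17, 0.24, 0.13 and 0.16.

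**Figure D1:**
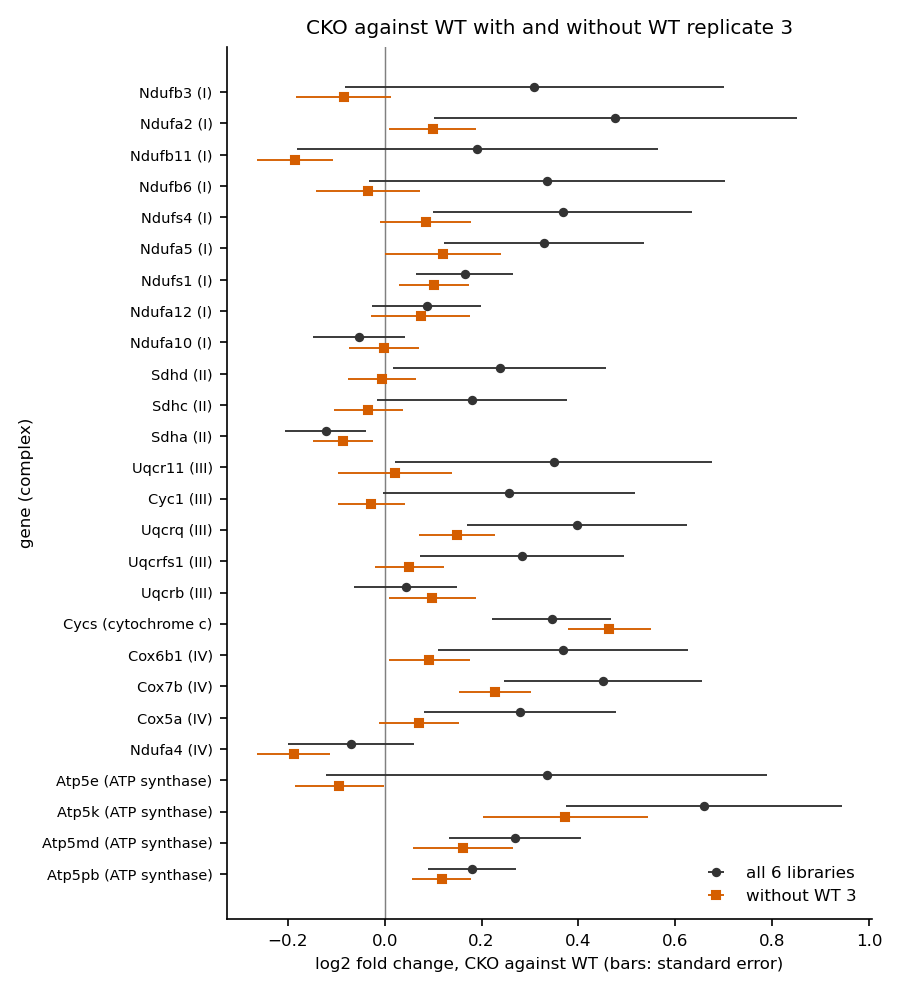
Log2 fold change of CKO against WT (x axis) with its standard error (bars) for 26 genes of the respiratory chain, named with their complex on the y axis, in the fit of all 6 libraries (circles) and without WT replicate 3 (squares). Circles lie mostly right of 0, and without WT replicate 3 most squares lie near 0, with Cycs at 0.46, Atp5k at 0.37 and Cox7b at 0.23.

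Complex I, the NADH dehydrogenase, has a core that carries the flavin and the iron-sulfur clusters and a large set of supernumerary subunits around it. None of its 36 genes passed the test over all libraries. Ndufs1, which carries iron-sulfur clusters of the core, had the smallest p of the complex. It was measured at 59.3, 64.7 and 53.8 CPM in WT and 66.4, 68.8 and 64.1 CPM in CKO, with a log2 fold change of 0.17 ± 0.10 (SE, adjusted p = 0.393). The CKO values were high in the range, and CKO replicate 3 lay below WT replicate 2. For Ndufa5, a supernumerary subunit, the log2 fold change was 0.33 ± 0.21 (SE) and for Ndufs4, whose loss is used as a mouse model of Leigh syndrome, it was 0.37 ± 0.27 (SE). Without WT replicate 3, Ndufs1 was at 0.10, Ndufa5 at 0.12 and Ndufs4 at 0.084.

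Ndufs7 (ENSMUSG00000020153, GRCm38 chromosome 10 from 80249121 to 80256794) encodes the core subunit with the last iron-sulfur cluster before ubiquinone. It falls outside the rule for naming genes and is given because it was called without WT replicate 3. Its levels were 41.6, 38.8 and 23.3 CPM in WT and 35.4, 29.9 and 33.4 CPM in CKO. The 3 CKO libraries lay below WT replicates 1 and 2 and above WT replicate 3. The log2 fold change was -0.069 ± 0.20 (SE, adjusted p = 0.879) over all libraries and -0.28 ± 0.088 (SE, adjusted p = 0.031) without WT replicate 3. Without that library, DESeq2 (adjusted p = 0.062) and offsets for GC content and length (adjusted p = 0.058) did not call it. In that fit Ndufb5 and Ndufb11, supernumerary subunits, had an unadjusted p under 0.05 and were not called, with log2 fold changes of -0.23 and -0.19.

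Complex II, which is also the succinate dehydrogenase of the citric acid cycle, is the complex with no subunit encoded by mitochondrial DNA. Sdha, its flavoprotein, was measured at 255, 247 and 268 CPM in WT and 245, 235 and 227 CPM in CKO. The groups did not overlap, and the log2 fold change of -0.12 ± 0.084 (SE, adjusted p = 0.458) did not pass the test, and it was -0.067 with GC and length offsets. Sdhd and Sdhc, the membrane anchors, gave 0.24 ± 0.22 and 0.18 ± 0.20 (SE), and without WT replicate 3 they gave -0.0051 and -0.034.

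In complex III, Uqcrq had the smallest p, with 44.2, 40.3 and 22.1 CPM in WT and 44.0, 48.4 and 47.7 CPM in CKO. The groups overlapped, and the log2 fold change was 0.40 ± 0.23 (SE, adjusted p = 0.369). Uqcrfs1, the Rieske iron-sulfur protein, and Uqcr11 gave 0.28 ± 0.21 and 0.35 ± 0.33 (SE). Without WT replicate 3, Uqcrq was at 0.15, Uqcrfs1 at 0.051 and Uqcr11 at 0.021. For Cyc1, which encodes cytochrome c1, the value was 0.26 ± 0.26 (SE) over all libraries and -0.028 without WT replicate 3.

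Cycs (ENSMUSG00000063694, chromosome 6 from 50562563 to 50566538) encodes cytochrome c, which carries electrons from complex III to complex IV and starts apoptosis when released. It was measured at 29.5, 25.8 and 34.4 CPM in WT replicates 1 to 3 and at 38.1, 37.1 and 38.8 CPM in CKO replicates 1 to 3. All 3 CKO libraries lay above all 3 WT libraries, and WT replicate 3 was the highest of the WT libraries. The log2 fold change was 0.35 ± 0.12 (SE, adjusted p = 0.147) and missed the threshold. Without WT replicate 3 it was 0.46 ± 0.086 (SE, adjusted p = 0.0011), and it was also called without that library by DESeq2 and limma-voom, with RLE or total-count scaling and with GC and length offsets, at 0.37 to 0.47. Leaving out WT replicate 1 or WT replicate 2 in its place gave 0.34 (adjusted p = 0.219) and 0.25 (adjusted p = 0.316), and Cycs was not called. Transcripts of 4 other annotated genes are near-identical to Cycs over part of their length, none of them in the count table, so reads of these copies could not be told from its own.

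In complex IV, which reduces oxygen to water, Cox7b had the smallest p. Cox7b (ENSMUSG00000031231, chromosome X from 106015700 to 106022450) encodes a small membrane subunit needed for assembly. Its levels were 50.0, 48.4 and 27.9 CPM in WT and 55.9, 61.4 and 55.1 CPM in CKO, and the groups did not overlap. The log2 fold change was 0.45 ± 0.20 (SE, adjusted p = 0.252), and 0.23 ± 0.075 (SE, adjusted p = 0.041) without WT replicate 3. Without that library, DESeq2 (adjusted p = 0.080), total-count scaling (adjusted p = 0.090) and GC and length offsets (adjusted p = 0.231) did not call it. Cox7b is X-linked, as are Ndufa1 and Ndufb11, whose log2 fold changes without WT replicate 3 were -0.037 and -0.19, and the part that sex has in these values was not tested. Of 2 near-identical copies of Cox7b, 1 is in the count table, so its counts are uncertain to that extent. Cox6b1 and Cox5a gave 0.37 ± 0.26 and 0.28 ± 0.20 (SE), and without WT replicate 3 they gave 0.092 and 0.071.

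Ndufa4, which was first assigned to complex I and is now counted with complex IV, was measured at 96.5, 83.2 and 68.0 CPM in WT and 80.8, 79.5 and 75.5 CPM in CKO. The CKO values lay between WT replicates 2 and 3. Its log2 fold change was -0.070 ± 0.13 (SE, adjusted p = 0.797) over all libraries and -0.19 ± 0.075 (SE, adjusted p = 0.089) without WT replicate 3. With offsets for GC content and transcript length over all libraries it was -0.25 (adjusted p = 0.155). Ndufa4 was called lower without WT replicate 3 with those offsets, at -0.29 ± 0.077 (SE, adjusted p = 0.0125), and with total-count scaling, at -0.23 (adjusted p = 0.040), and not with RLE scaling, DESeq2 or limma-voom. Cox4i1 stood at 197, 163 and 101 CPM in WT and 177, 173 and 170 CPM in CKO, with a log2 fold change of 0.17 (adjusted p = 0.685) over all libraries and -0.054 without WT replicate 3. The CKO values again lay within the range of WT. Its hypoxia-linked alternative Cox4i2 stayed under 0.88 CPM in every library.

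In ATP synthase, all 17 genes had log2 fold changes above 0 over all libraries, and 7 of the 17 were below 0 without WT replicate 3. Atp5k (chromosome 5 from 108433244 to 108434448), a small subunit of the membrane part, was measured at 5.11, 4.77 and 2.29 CPM in WT and 5.80, 7.26 and 6.11 CPM in CKO. The groups did not overlap, and the log2 fold change of 0.66 ± 0.29 (SE, adjusted p = 0.230) missed the threshold. It was 0.37 ± 0.17 (SE, adjusted p = 0.140) without WT replicate 3. Atp5pb, of the peripheral stalk, and Atp5md, of the membrane part, gave 0.18 ± 0.090 and 0.27 ± 0.14 (SE), and in both the 3 CKO libraries lay above the 3 WT libraries. With offsets for GC content and transcript length, Atp5md was at 0.006 (adjusted p = 0.978) and Atp5pb at 0.19, and without WT replicate 3 they were at 0.16 and 0.12.

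**Figure D2:**
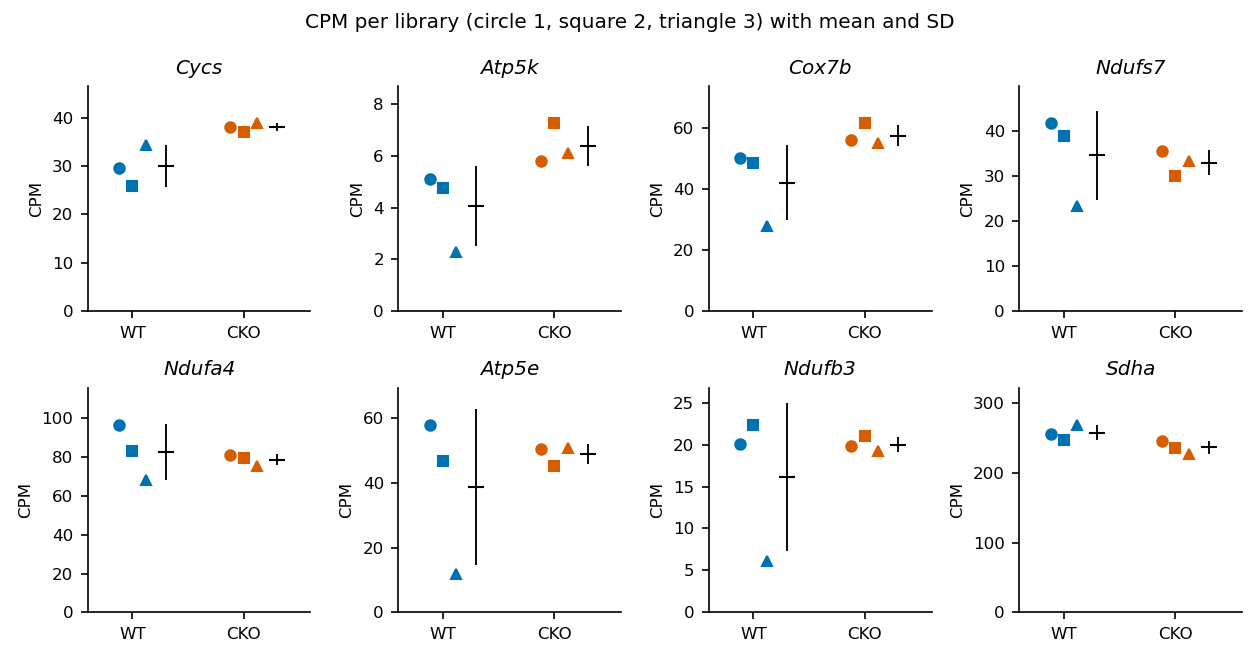
CPM (y axis, from 0) of 8 genes in each library of WT (blue) and CKO (orange), with circles for replicate 1, squares for replicate 2 and triangles for replicate 3, and the mean with its SD (n = 3) in black. Cycs, Atp5k, Cox7b and Sdha do not overlap between genotypes, and WT replicate 3 is low for Atp5k, Cox7b, Ndufs7, Ndufa4, Atp5e and Ndufb3 and highest for Sdha.

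WT replicate 3 was then compared with the other libraries. It was the lowest of the 6 libraries in 71 of the 78 genes (91.0%), where it was lowest in 32.1% of all genes tested. It was the highest in 2 genes, Ndufa10 and Sdha, where it was highest in 32.1% of all genes. The 78 genes together took 5559 and 5030 CPM in WT replicates 1 and 2, 3602 CPM in WT replicate 3, and 5131 to 5210 CPM in the 3 CKO libraries. The median difference of WT replicate 3 from the mean of WT replicates 1 and 2 was -0.76 on the log2 CPM scale, against 0.005 over all genes, and 52 of the 78 lay at least 0.5 below, where 15.8% of all genes did. WT replicate 1 lay above WT replicate 2 by a median of 0.14, and the CKO libraries differed from each other by medians of 0.003 to 0.028. The median coefficient of variation was 4.00% among the CKO libraries, 8.12% between WT replicates 1 and 2, and 28.3% among all 3 WT libraries. Over all genes tested the same values were 6.67%, 6.93% and 15.1%. WT replicate 3 had the most counts of the 6 libraries.

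**Figure D3:**
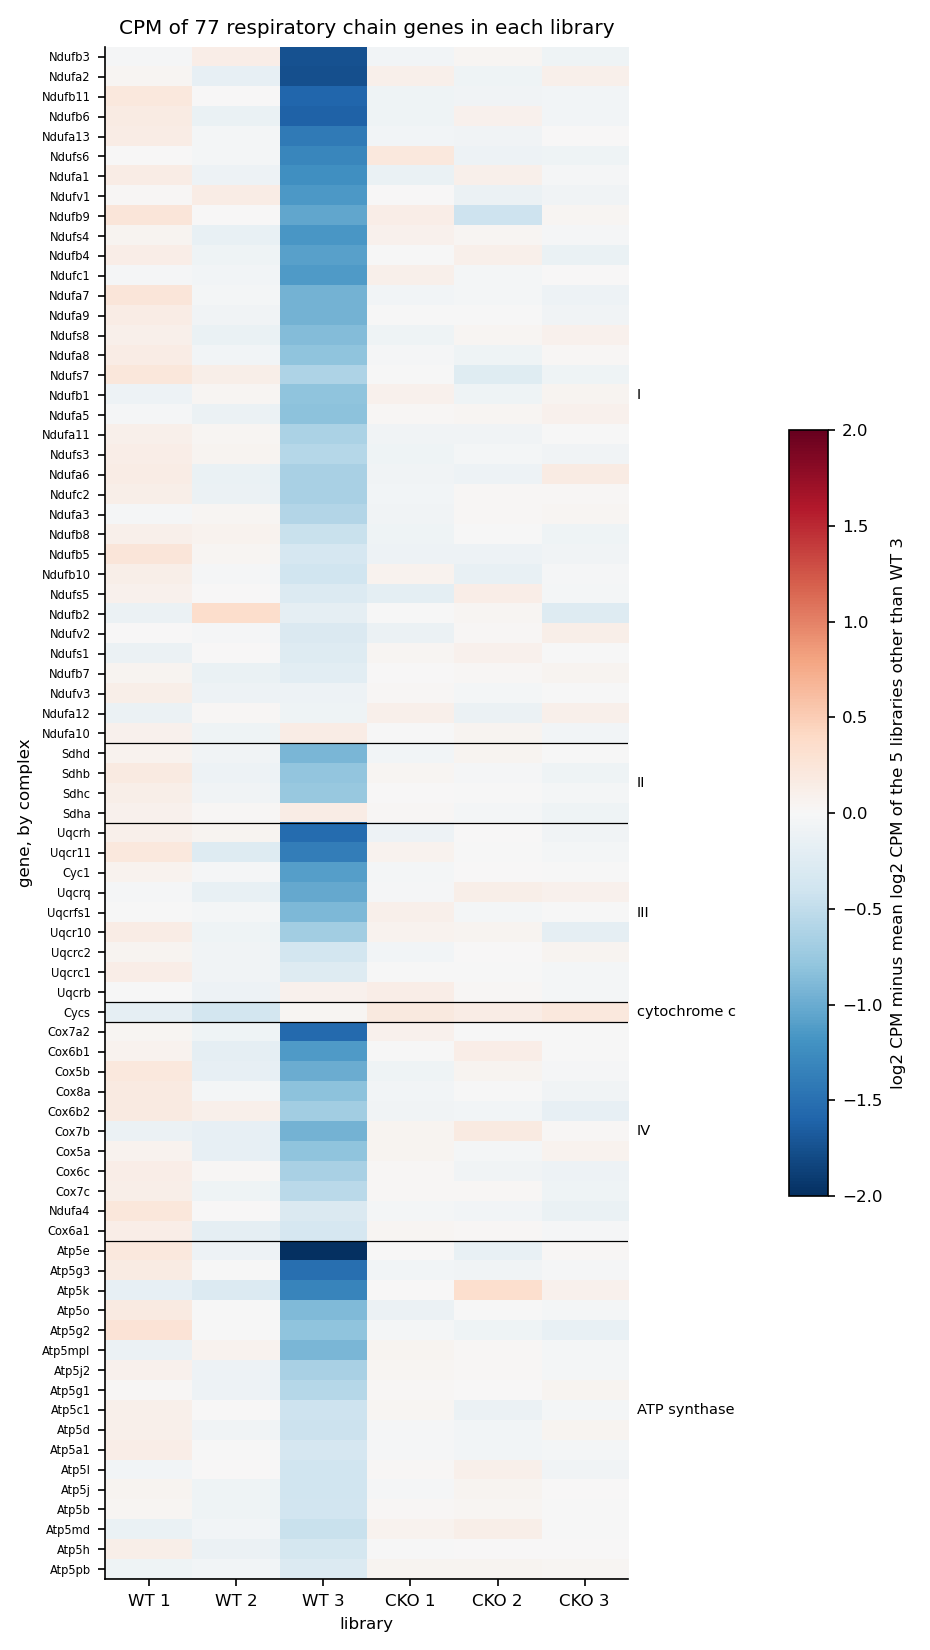
Log2 CPM of 77 of the 78 tested genes (rows, grouped by complex) in each of the 6 libraries (columns), less the mean of the 5 libraries other than WT replicate 3. Blue is lower and red higher, on a scale from -2 to 2, and the column of WT replicate 3 is blue in most rows of every complex, with pale exceptions such as Cycs, Uqcrb, Sdha and Ndufa10.

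The low values in WT replicate 3 were spread over the complexes. The median difference was -0.76 for complex I, -0.80 for complex II, -0.87 for complex III, -0.82 for complex IV and -0.47 for ATP synthase. WT replicate 3 was lowest in all 17 genes of ATP synthase and all 11 tested of complex IV, in 32 of 36 of complex I, in 8 of 9 of complex III and in 3 of 4 of complex II. Within complex I, the 7 core genes had a median of -0.76 and the 29 supernumerary genes a median of -0.77.

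Among genes with a mean of at least 10 CPM, Atp5e was furthest below. Atp5e (chromosome 2 from 174461072 to 174464105) encodes the ε subunit of the rotating stalk of ATP synthase, and it was measured at 57.8, 46.7 and 11.7 CPM in WT and 50.3, 45.3 and 50.7 CPM in CKO. WT replicate 3 held 22.4% of the mean of WT replicates 1 and 2, and the other 5 libraries were close together. Ndufb3, a supernumerary subunit of the membrane arm of complex I, was measured at 20.1, 22.3 and 6.09 CPM in WT and 19.8, 21.04 and 19.2 CPM in CKO. Ndufa2, Ndufb11 and Ndufb6 followed, at 30.5%, 30.6% and 32.0% of WT replicates 1 and 2. The exons of Ndufb6 overlap the antisense gene Smim27 over 39.0% of their length, and without knowledge of strand in the counting those reads cannot be told apart.

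At the other end stood Cycs, at 124% of WT replicates 1 and 2, Uqcrb at 111%, Ndufa10 at 110%, Sdha at 107% and Ndufa12 at 97.0%. Uqcrb encodes the ubiquinone-binding protein of complex III, and transcripts of 3 other annotated genes are near-identical to part of it. The subunits of 1 complex, which are made in fixed ratio in the finished enzyme, therefore differed widely in this library: Sdha was at 107% of WT replicates 1 and 2, and Sdhb, Sdhc and Sdhd were at 56.3%, 58.0% and 53.1%. In the 3 CKO libraries Sdhb stood at 76.1, 72.6 and 70.2 CPM, against 83.6 and 69.3 CPM in WT replicates 1 and 2 and 43.0 CPM in WT replicate 3.

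Transcript length, GC content and the mitochondrially encoded partners of these genes were set beside the low values. The tested genes had a median transcript length of 786 bases, against 2918 bases over all genes tested. Over all genes, WT replicate 3 differed from WT replicates 1 and 2 by a median of -0.56 for 275 transcripts under 600 bases, -0.41 from 600 to 1000, -0.25 from 1000 to 1500, -0.067 from 1500 to 2500 and 0.090 above 2500 bases. The respiratory chain genes of the same lengths gave -0.78, -0.81, -0.82, -0.36 and -0.20, with 24, 26, 10, 13 and 5 genes. Their medians were lower than those of all genes in each of the 5 ranges of length. Across the 78 genes, Spearman's rho of length with the difference was 0.25, and across 13730 genes it was 0.30, as a description of genes that share these libraries. For GC content the same values were -0.15 and -0.35. With offsets for GC content and transcript length in the fit of all 6 libraries, the median log2 fold change of CKO against WT was 0.089 in place of 0.16. The part of length and GC content in the low values was not tested.

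**Figure D4:**
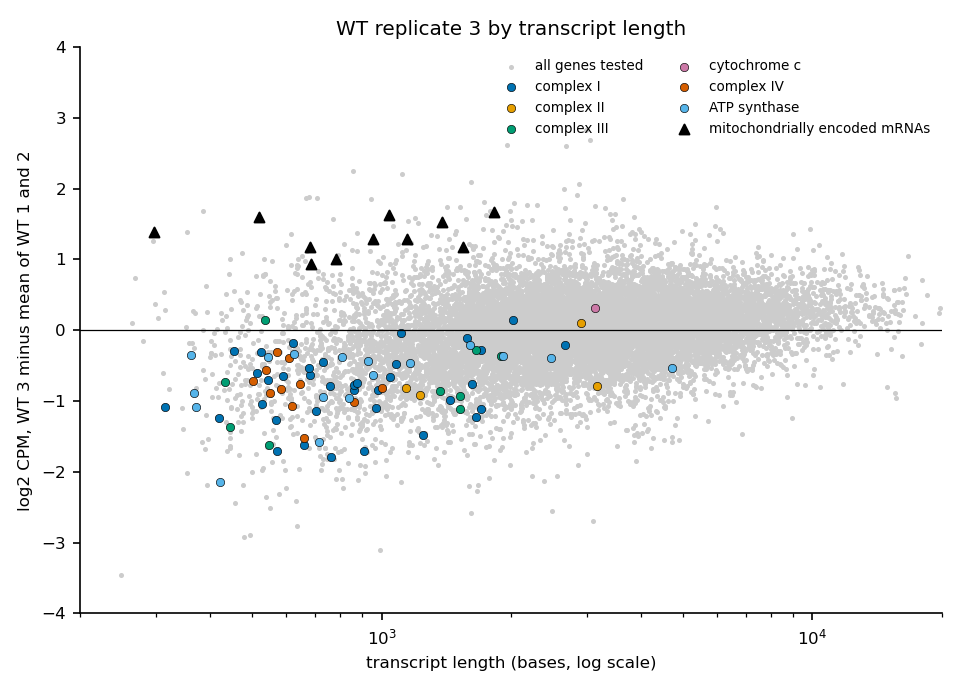
Difference of WT replicate 3 from the mean of WT replicates 1 and 2 in log2 CPM (y axis) against transcript length in bases (x axis, log scale) for all genes tested (grey, with 25 outside the axes), the respiratory chain genes by complex (colored circles) and 11 mitochondrially encoded mRNAs (triangles). Most circles lie below 0 at lengths under 2500 bases, and the triangles all lie above 0.

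The mRNAs encoded by mitochondrial DNA moved the other way in the same library. Of 13 such genes 11 were tested, WT replicate 3 was the highest library in 10 of the 11, and the median difference was 1.29 on the log2 scale. They summed to 13880 and 15280 CPM in WT replicates 1 and 2, 36708 CPM in WT replicate 3, and 14570 to 14780 CPM in the CKO libraries. mt-Co1, of the catalytic core of complex IV, was measured at 7379, 7815 and 17228 CPM in WT and 7263, 7097 and 7290 CPM in CKO, where nuclear-encoded Cox4i1 gave 197, 163 and 101 CPM in WT. mt-Cytb, of complex III, was measured at 1794, 2047 and 4686 CPM in WT and 1966, 2036 and 2017 CPM in CKO. In neither edgeR fit was any of the 11 called between the genotypes, and over all libraries none had an unadjusted p under 0.05, with medians of -0.50 over all libraries and 0.14 without WT replicate 3. Levels of mt-Co2, mt-Co3 and mt-Atp6 were under 11 CPM in every library, far below mt-Co1, although they encode other core subunits of complex IV and ATP synthase.

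Genes that build or supply the respiratory chain were read from fixed lists. Of 21 assembly factors of complex IV 1 was called, where 2.88% of all genes were called higher, and 1 other gene of the list was higher and 1 lower at an unadjusted p under 0.05. The called gene was Cox11, a copper chaperone of the complex, which rose in CKO by a log2 fold change of 0.70 ± 0.16 (SE, adjusted p = 0.033) and by 0.60 (adjusted p = 0.011) without WT replicate 3. None was called of 14 assembly factors of complex I, 4 of complex II, 6 of complex III and 3 of ATP synthase, and 0 of these had an unadjusted p under 0.05. Of 77 mitochondrial ribosomal proteins 0 were called (2 higher and 0 lower at an unadjusted p under 0.05), with a median of 0.093, and their median difference in WT replicate 3 was -0.41. None was called of 16 enzymes of the citric acid cycle and pyruvate dehydrogenase or of 11 carriers and channels, where 2 and 1 were higher at an unadjusted p under 0.05. The medians of these 2 lists in CKO against WT were 0.077 and 0.19, and their medians in WT replicate 3 were -0.19 and -0.40. Without WT replicate 3, Idh3a of the citric acid cycle, the uncoupling protein Ucp2 and the ribosomal protein Mrps18c were called higher, at 0.30, 0.23 and 0.58, and Mrps6 and the complex IV-related Cox7a2l lower, at -0.68 and -0.24. In that fit 11.1% of all genes were called higher and 10.4% lower, so these single calls are no result about their lists.

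The regulators of mitochondrial biogenesis, which control transcription of these genes, were read as a list of 12. None was called between genotypes, with 1 lower at an unadjusted p under 0.05, with a median of -0.079, and their median difference in WT replicate 3 was 0.083. Gabpa, the DNA-binding subunit of GABP, was measured at 59.3, 59.0 and 86.4 CPM in WT and 60.6, 67.0 and 63.7 CPM in CKO, so WT replicate 3 was the highest library. Esrra, a nuclear receptor that drives respiratory genes, was measured at 68.6, 64.4 and 36.0 CPM in WT and 75.1, 70.7 and 72.9 CPM in CKO, and Ppargc1a, the coactivator PGC-1α, stayed under 0.62 CPM in every library. Tfam, which packages and transcribes mitochondrial DNA, stood at 20.8, 24.7 and 15.8 CPM in WT and 20.8 to 21.8 CPM in CKO. Over the 12 genes, WT replicate 3 was the highest library in 7 and the lowest in 4.

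**Figure D5:**
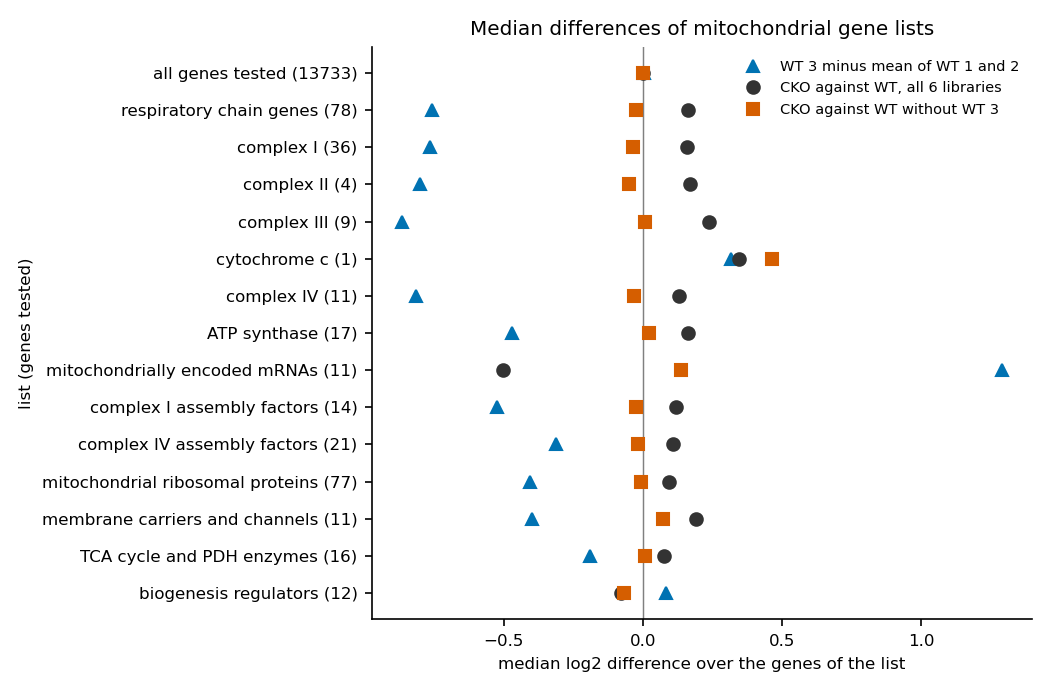
Median log2 difference (x axis) over the genes of each list (y axis, number of genes tested in brackets) for WT replicate 3 against WT replicates 1 and 2 (triangles), CKO against WT over all libraries (circles) and CKO against WT without WT replicate 3 (squares). Triangles lie below 0 for complexes I to IV and ATP synthase and at 1.29 for the mitochondrially encoded mRNAs, and squares lie near 0 except for cytochrome c at 0.46.

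Last, the genes were grouped by their promoter windows and their medians set side by side, with no test of the difference. The 17 tested genes whose windows all begin at an annotated A had a median log2 fold change of 0.18 over all libraries and -0.039 without WT replicate 3, and the 49 whose windows begin at other bases had medians of 0.16 and -0.017. WT replicate 3 was the lowest library in 15 of the 17 and in 45 of the 49. The 11 genes with the NRF1 core had a median difference of -0.70 in WT replicate 3, against -0.76 for the 55 without it. The 17 genes with the ETS core had a median of -0.85, against -0.73 for the 49 without it.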

How the data were processed

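Poly(A) RNA-seq libraries of WT and CKO MSCs, 3 of each, were grouped by the sample labels. The deposited values are raw counts of reads per gene, which the authors made from reads mapped to mm10 with HISAT2. Which program counted the reads, on which annotation and with which strand setting, is not given in the sources used here. The table has 20163 rows, and the 92 that repeated an earlier Ensembl ID, counts included, were dropped. Called genes are those with an adjusted p under 0.05 in the quasi-likelihood test of edgeR 4.0.16 under R 4.3.3, after filterByExpr and TMM scaling, with Benjamini-Hochberg adjustment over 13733 genes. The standard error is the log2 fold change over the square root of F. Differences of single libraries are in log2 CPM with a prior count of 2. Lengths, positions and exon overlaps come from GENCODE release M21 on GRCm38, and near-identical copies from blastn. The alternatives were DESeq2 1.42.0, limma-voom (limma 3.58.1), other scalings and filters, a replicate block, GC and length offsets, and leaving out each library. The fits were tested on simulated counts, where edgeR recovered 190 of 200 genes changed by 1 on the log2 scale, with 13 false calls. The simulation gave all genes the same dispersion and held no outlying library, and smaller changes were not simulated. It therefore cannot show how the fits behave with a library such as WT replicate 3.

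The genes and lists were chosen with earlier results of these data known. Named were the 3 genes of each complex with the smallest p, Ndufa4, Cox4i1, Sdha, Cyc1 and Cycs, the 5 lowest and 5 highest in WT replicate 3 at a mean of at least 10 CPM, the isoforms Cox6a2, Cox6b2 and Cox7a1 as levels, and up to 3 genes of other lists. Other genes were named after their values were seen, and the values of 1 gene are not reported here. An exact two-sided permutation test of 3 against 3 cannot go below 0.1, and none was run.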

Additional observations from a re-analysis of the deposited data

How the results depend on the processing

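Across RLE and total-count scaling, tests without a filter or on genes averaging 10 counts or more, DESeq2, limma-voom, GC and length offsets and the stricter threshold of 1 on the log2 scale, 0 genes were called in either direction, and the median log2 fold change lay between 0.089 and 0.21. Leaving out 1 library in turn gave 0 to 1 genes called lower, 0 to 2 called higher and medians from -0.026 to 0.34, and only the fit without WT replicate 3 gave calls or a median below 0. Combined with the loss of WT replicate 3, and chosen after seeing the data, DESeq2 gave 0 lower, 1 higher and a median of -0.030, limma-voom 1, 2 and -0.023, GC and length offsets 1, 1 and -0.0061, RLE scaling 1, 2 and -0.026, and total-count scaling 5, 1 and -0.064. The replicate numbers do not pair the samples (correlations of same-numbered libraries 0.055, -0.045 and -0.013), and with the number as a block 0 genes were called, with a median of 0.20.

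WT replicate 3 was lowest in 72 genes with total-count scaling and 71 with RLE scaling, and its median difference stayed between -0.80 and -0.69 under the 4 alternatives. For the 27 named genes, leaving out a library turned the direction of 9. The lowest and highest values were -0.094 and 0.74 for Atp5e, -0.054 and 0.39 for Cox4i1, -0.028 and 0.46 for Cyc1, -0.19 and 0.059 for Ndufa4, -0.19 and 0.50 for Ndufb11, -0.085 and 0.62 for Ndufb3, -0.034 and 0.68 for Ndufb6, -0.034 and 0.37 for Sdhc, and -0.0051 and 0.43 for Sdhd. Cycs and Cox7b passed the threshold without WT replicate 3, Cycs under all 5 added alternatives and Cox7b under RLE scaling and limma-voom. With GC and length offsets Uqcrb was at -0.19, Atp5md at 0.006, Ndufa4 at -0.25, Cox5a at 0.17 and Cox4i1 at 0.10, and without WT replicate 3 these offsets called Ndufa4 lower and not Ndufs7. The cause of these shifts was not tested.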
